A study of Mus musculus with 9 samples.

Results

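Genes of the core pluripotency list were followed through 9 libraries of mouse embryonic stem cells, which had been made from Gzf1-knockout and wild-type cells. The list has 10 members, taken by symbol: Pou5f1, Sox2, Nanog, Sall4, Utf1, Lin28a, Dppa2, Dppa4, L1td1 and Trim71. Each had a row of its own among the 30232 gene rows of the count table, 0 of them merged with another symbol, and all 10 were among the 12645 rows with enough counts to be tested. The name of the list is only partly borne out by what its members are. Pou5f1, Sox2, Nanog and Sall4 encode DNA-binding transcription factors, Utf1, Dppa2 and Dppa4 encode chromatin-associated proteins, and Lin28a, L1td1 and Trim71 encode RNA-binding proteins.

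The knockout libraries numbered 5, replicates 1 and 2 from RGM cells (run2) and replicates 3, 4 and 5 from V6.5 cells (run1). The wild-type libraries numbered 4, replicates 1 and 2 from RGM cells (run2), replicate 3 from V6.5 cells (run1) and replicate 4 from a Cas9-GFP line (run1). V6.5 is a long-established hybrid mouse stem cell line. All cells of both genotypes had been kept with LIF and serum on a feeder layer of mouse embryonic fibroblasts that was depleted at harvest, so that no line was grown free of feeders. The sources used here do not give the site of the knockout in Gzf1, nor whether libraries of a genotype came from separate clones or cultures. The p-values therefore cover library-to-library spread, part of which may be technical.

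Pluripotent stem cells keep themselves undifferentiated through a small circuit in which OCT4 (the product of Pou5f1) and SOX2 bind DNA side by side and, with NANOG, drive their own genes and those of many partners. Around this circuit act SALL4, which recruits the NuRD corepressor complex, and the paired SAP-domain proteins DPPA2 and DPPA4. This pair primes silent genes for later use. RNA-binding proteins act there too, and LIN28A among them keeps the let-7 microRNAs in check. LIN28A blocks the maturation of let-7, while let-7 in turn represses the messenger RNAs of Lin28a and Trim71. LIF acts through STAT3 to hold the circuit in its self-renewing state in mouse cells.

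Sequences of the list show both layers of this circuit. In the Nanog promoter, the SOX2 and OCT4 binding letters lie next to each other, and they are printed in capitals in the window from 250 bases before to 50 bases after a RefSeq start site of Nanog (GRCm38.p6, chr6:122707239-122707538, plus strand):
Nanog promoter: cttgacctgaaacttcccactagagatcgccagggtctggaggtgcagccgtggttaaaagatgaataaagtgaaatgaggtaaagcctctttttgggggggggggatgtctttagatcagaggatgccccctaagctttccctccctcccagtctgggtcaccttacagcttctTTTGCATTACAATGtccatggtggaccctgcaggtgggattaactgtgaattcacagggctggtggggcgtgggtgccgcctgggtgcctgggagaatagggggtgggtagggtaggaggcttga
The letters searched, on either strand, were the SOX letters CATTGT followed after 1 base of any kind by the OCT letters ATGCAAA, which are read here from the minus strand. They were chosen after the well-known element of this promoter, so that their presence there was given beforehand. Of 32851 promoter windows of 300 bases in the RefSeq table, 2 (0.00609%) held them, and both were windows of Nanog. The shorter SOX letters CATTGT, which the joined letters contain, were found in 12.6% of windows, among them 1 of the windows of Lin28a and of Pou5f1, and the octamer letters ATGCNAAT were in 3.15% of windows and in 0 windows of the 7 members that the table holds.

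The second layer is the let-7 site in the 3′ untranslated region. Of 10 mature let-7 sequences listed by RefSeq, 9 shared the seed (bases 2 to 8) GAGGUAG, shown in capitals in the first of them (chr13:48538239-48538260, minus strand). The letters CTACCTC, which pair with that seed, are in capitals in the sites of Lin28a, Trim71 and Sall4 (GENCODE M21, GRCm38, all on the minus strand):
mmu-let-7a-5p: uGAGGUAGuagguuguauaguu
Lin28a site at chr4:134005189-134005212: tgcacagcctgttgaaCTACCTCa
Lin28a site at chr4:134004551-134004574: tgagatcgccacaaacCTACCTCa
Trim71 site at chr9:114512472-114512495: caacattgcctaagtcCTACCTCa
Trim71 site at chr9:114512376-114512399: aagtgataatttctatCTACCTCa
Trim71 site at chr9:114509047-114509070: gtttagtatggattttCTACCTCa
Trim71 site at chr9:114509021-114509044: tttggcaaaaagttgtCTACCTCa
Sall4 site at chr2:168748940-168748963: gagggctttaatttatCTACCTCa
The remaining members had no such letters in their longest annotated 3′ untranslated region. Over 21677 genes with an annotated 3′ untranslated region 8.75% had them at least once. The annotated 3′ regions of Trim71 (5512 bases, 4 sites), Lin28a (2775 bases, 2 sites) and Sall4 (1697 bases, 1 site) were the longest of the 10 members. Mature let-7 is not counted by a poly(A) method, so its level is not known here.

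The libraries are of the MARS-seq2.0 kind, in which poly(A) transcripts are counted by their 3′ ends. Totals were 2568489 to 3704162 counts in run2 and 4872127 to 7072697 in run1, and the list took 0.290% to 0.365% of the counts of a library. Levels are given as CPM, the count as a share of the TMM-scaled library total, and a count of 3, taken as the floor, was worth 0.412 to 1.18 CPM. The lowest count of any member was 32, for Trim71 in knockout replicate 2. Gzf1 itself was at 5.45 and 14.2 CPM in RGM knockout and 1.66, 9.40 and 5.24 CPM in V6.5 knockout libraries, against 28.6 and 30.0 CPM in RGM, 8.11 CPM in V6.5 and 18.7 CPM in Cas9-GFP wild-type libraries. The genotypes overlapped, since the V6.5 wild-type library lay below knockout replicates 2 and 4, and the log2 fold change was -1.45 (SE 0.42, unadjusted p = 0.0048, adjusted p = 0.9998). Whether the counted 3′ end lies in the edited part is not known, so these values do not check the labels. Stem cell markers were found in every library, with Esrrb at 270 to 528 CPM and Tdgf1 at 512 to 2248 CPM. Pou5f1 (25.3 to 52.5 CPM) and Zfp42 (32.2 to 396 CPM) reached the lowest values of the markers looked at.

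Differences are given as log2 fold changes with a standard error (SE) and a 95% interval, tested with the quasi-likelihood test of edgeR and with p-values adjusted over all 12645 genes, at a threshold of 0.05. The comparison of genotypes, knockout over wild type, used all 9 libraries with run as a term. It asks whether the pluripotency circuit changes when Gzf1, a zinc finger gene that the series title places with Zfp57 at the imprinted Dlk1-Dio3 cluster, is lost. No member passed the threshold (0 in edgeR, and 0 in DESeq2), where 0.0316% of tested genes did (4 of 12645, all lower). No member separated the genotypes in all 9 libraries either, as 0.198% of genes did with higher and 0.245% with lower values in knockout. The 10 estimates ran from -0.33 to 0.23 on the log2 scale, with a median of -0.05 beside 0.01 for all tested genes, and the outermost limits of their 95% intervals were -0.77 and 0.52. A change of 2-fold in either direction therefore lay outside the interval of every member, in the fit to all libraries. Within RGM cells and within run1 the intervals were wider, and the number of members past the threshold was likewise 0, against a background of 0% and 0.0158%. At an unadjusted p under 0.05 there were 1 member and 2.32% of all genes in all libraries, 1 member and 0.822% within RGM, and 1 member and 3.84% within run1.

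The comparison of cell lines, RGM over the run1 lines, gave larger differences for a few members. It used the run term of the same fit, in which RGM cells (4 libraries) stand against V6.5 and Cas9-GFP cells (5 libraries). Since all RGM libraries belong to run2 and all others to run1, cell line and run cannot be told apart. Lin28a was higher in RGM, and Dppa2, Trim71 and L1td1 were lower, whereas Pou5f1, Sox2, Nanog, Sall4, Utf1 and Dppa4 did not pass the threshold. That is 4 of 10 members, close to the 45.3% of all tested genes that passed, so the count says nothing particular of the list. By direction 22.2% of all genes were higher and 23.1% lower in RGM, beside 1 and 3 of the members.

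Fibroblast markers moved with this comparison. Of 24 listed markers of feeder fibroblasts 22 were tested. In RGM 18 were higher and 1 was lower, beside 22.2% and 23.1% of all tested genes. Of the 18, 1 was under the level of the low-count filter in run1 and entered the test only through RGM. The summed level of the list was 3060 to 4798 CPM in RGM knockout and 3402 to 3712 CPM in RGM wild-type libraries, and 1984 to 2624 CPM in run1 knockout and 1745 to 2247 CPM in run1 wild-type libraries. Sparc (27954 counts over the 9 libraries) and Fn1 (26708) had the most counts of the list, so the sum rests largely on them. At most 2 of the 24 markers were at 0 in any library. The part of feeder cells in the differences between lines was not tested. In such bulk RNA, fewer cells of a type and less RNA per cell cannot be told apart.

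**Figure D1:**
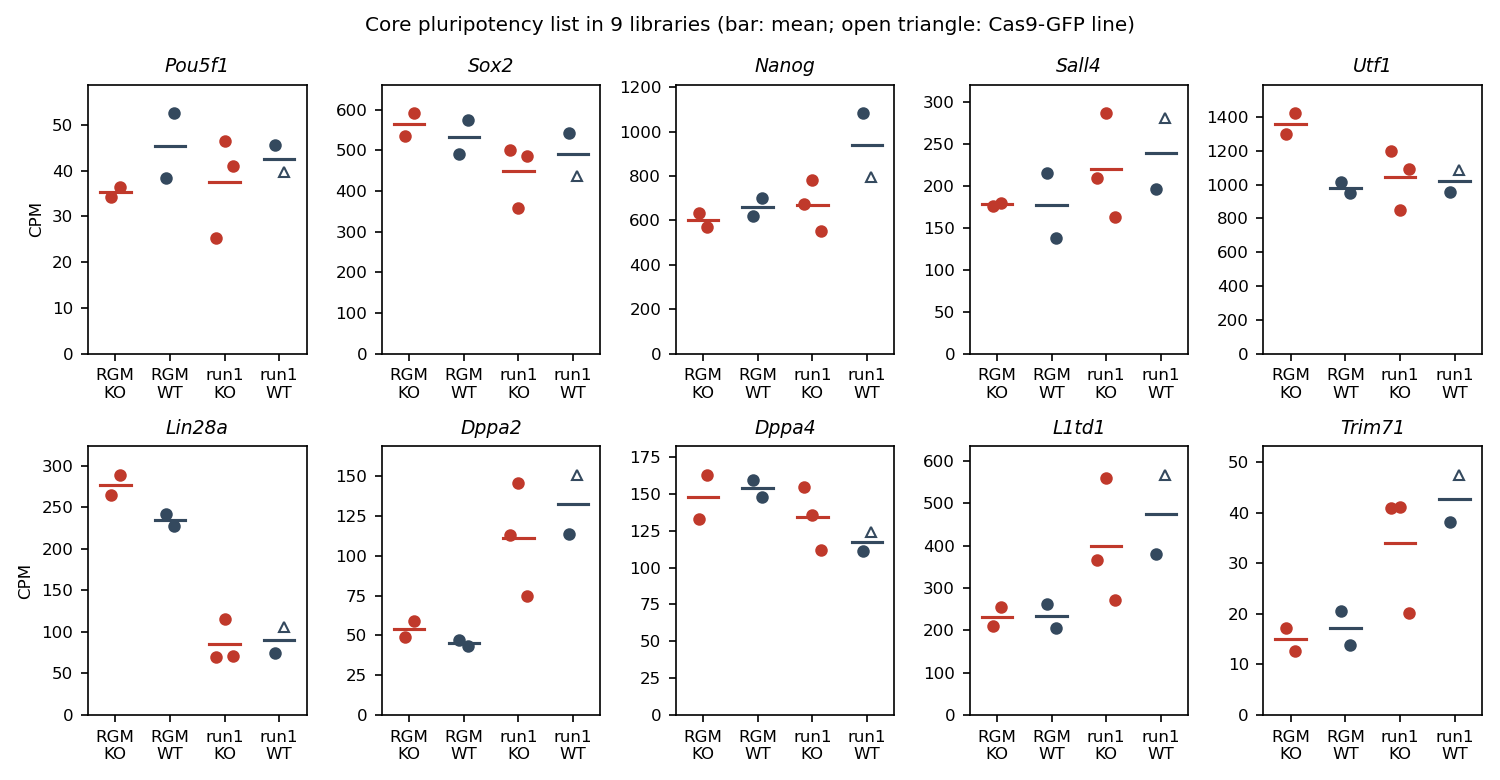
Level of each member in every library (vertical axis, CPM from 0), with knockout in red and wild type in dark blue, RGM (run2) on the left and the run1 lines on the right of each panel; bars are group means and the open triangle is the Cas9-GFP library. Lin28a is highest in the 4 RGM libraries (228 to 289 CPM in RGM against 69.4 to 116 CPM in run1), and Dppa2, L1td1 and Trim71 have their lowest mean there.

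Pou5f1 (chromosome 17, 35506018 to 35510772, mm10) encodes OCT4, whose dose sets whether mouse stem cells stay pluripotent. It was at 34.3 and 36.3 CPM in RGM knockout and 25.3, 46.4 and 41.0 CPM in V6.5 knockout libraries, against 38.3 and 52.5 CPM in RGM, 45.5 CPM in V6.5 and 39.6 CPM in Cas9-GFP wild-type libraries. The genotypes overlapped, with knockout replicate 3 lowest and wild-type replicate 2 highest of all. The knockout had a log2 fold change of -0.26 (SE 0.19, 95% interval -0.66 to 0.14, adjusted p = 0.9998). Between lines Pou5f1 had the smallest difference of the list, with a mean of 40.3 ± 8.27 CPM (SD, n = 4) in RGM and 39.5 ± 8.46 CPM (SD, n = 5) in run1 libraries and a log2 fold change of 0.00 (SE 0.19, interval -0.41 to 0.40). An annotated transcript on the other strand, Gm19553, covers 171 of the last 500 bases of the Pou5f1 transcript. It has no row of its own, and the sources used here do not state how strand was handled, so its reads cannot be told apart from those of Pou5f1. At 25.3 to 52.5 CPM Pou5f1 lay below Sox2 (359 to 591 CPM) and Nanog (552 to 1083 CPM) in every library. The cause was not tested, so whether the row holds all Pou5f1 reads is not known.

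Sox2 (chromosome 3, 34650405 to 34652461) encodes the partner that binds DNA beside OCT4. It was at 536 and 591 CPM in RGM knockout and 500.1, 359 and 486 CPM in V6.5 knockout libraries, against 489.8 and 574 CPM in RGM, 542 CPM in V6.5 and 438 CPM in Cas9-GFP wild-type libraries. The lowest value belonged to knockout replicate 4 and the next to the Cas9-GFP library, and the genotypes overlapped in both runs. The knockout had a log2 fold change of -0.03 (SE 0.13, 95% interval -0.31 to 0.25, adjusted p = 0.9998). RGM libraries averaged 548 ± 44.8 CPM (SD, n = 4) and run1 libraries 465 ± 70.1 CPM (SD, n = 5), with a log2 fold change of 0.23 (SE 0.13, interval -0.05 to 0.51, adjusted p = 0.16).

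Nanog (chromosome 6, 122707489 to 122714633) encodes a homeodomain protein whose level varies between cells of a stem cell culture and which sustains self-renewal. It was at 632 and 569.5 CPM in RGM knockout and 672, 781 and 552 CPM in V6.5 knockout libraries, against 620.3 and 701 CPM in RGM, 1083 CPM in V6.5 and 798 CPM in Cas9-GFP wild-type libraries. In run1 both wild-type libraries exceeded all 3 knockout libraries, an order that 7.1% of all tested genes shared (the reverse order held for 6.42% of genes and 0 members). In RGM the genotypes overlapped. Nanog was the member with an unadjusted p under 0.05 in the comparison of all libraries. The mean was 641 ± 91.8 CPM (SD, n = 5) in knockout and 800.4 ± 202 CPM (SD, n = 4) in wild-type libraries, a log2 fold change of -0.33 (SE 0.14, 95% interval -0.63 to -0.03, unadjusted p = 0.031, adjusted p = 0.9998). Without wild-type replicate 3, the highest library, the log2 fold change was -0.19 (edgeR, unadjusted p = 0.19). Within run1 it was then -0.25, with the Cas9-GFP library as the only wild type. Without that Cas9-GFP library it was -0.70 within run1, with the V6.5 library as the only wild type. With all libraries it was -0.49 within run1 (SE 0.19, interval -0.89 to -0.09, unadjusted p = 0.020, adjusted p = 0.9995) and -0.14 within RGM (SE 0.21, interval -0.58 to 0.31), and the difference between these effects had an unadjusted p of 0.22. RGM libraries averaged 631 ± 53.9 CPM (SD, n = 4) and run1 libraries 777 ± 197 CPM (SD, n = 5), which is -0.32 on the log2 scale (SE 0.14, adjusted p = 0.080). It passed the threshold without knockout replicate 5 (-0.40, adjusted p = 0.017).

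Sall4 (chromosome 2, 168748332 to 168767943) encodes a zinc finger protein that represses differentiation genes through NuRD. It was at 176 and 180.4 CPM in RGM knockout and 210.2, 287 and 163 CPM in V6.5 knockout libraries, against 216 and 138 CPM in RGM, 196 CPM in V6.5 and 282 CPM in Cas9-GFP wild-type libraries. The highest values were those of knockout replicate 4 and of the Cas9-GFP library, and the genotypes overlapped. The knockout had a log2 fold change of -0.06 (SE 0.18, 95% interval -0.45 to 0.32, adjusted p = 0.9998). RGM libraries averaged 177 ± 32.1 CPM (SD, n = 4) and run1 libraries 227 ± 54.8 CPM (SD, n = 5), which is -0.36 on the log2 scale (SE 0.18, adjusted p = 0.12). It passed the threshold without knockout replicate 5 (-0.46, adjusted p = 0.030). An annotated transcript on the other strand, Gm14261, overlaps exons of Sall4 and has no row of its own.

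Utf1 (chromosome 7, 139943789 to 139945112) encodes a chromatin protein and is a classical joint target of OCT4 and SOX2. It was at 1301 and 1422 CPM in RGM knockout and 1196, 852 and 1093 CPM in V6.5 knockout libraries, against 1013 and 949 CPM in RGM, 959 CPM in V6.5 and 1089 CPM in Cas9-GFP wild-type libraries. In RGM both knockout libraries exceeded both wild-type libraries, and in run1 the genotypes overlapped, with knockout replicate 4 lowest. Such separation in RGM was also seen for Lin28a and Dppa2, and in the other direction for Pou5f1, which makes 3 members higher beside 18% of all genes and 1 lower beside 16.6%. Within RGM the log2 fold change was 0.47 (SE 0.19, 95% interval 0.07 to 0.88, unadjusted p = 0.026, adjusted p = 1), the only one of the 10 with an unadjusted p under 0.05 there. It was 0.03 (SE 0.17, interval -0.34 to 0.40) within run1, and the difference between runs, 0.44 (SE 0.25), had an unadjusted p of 0.10. In all libraries it was 0.23 (SE 0.13, interval -0.05 to 0.52, adjusted p = 0.9998). RGM libraries averaged 1171 ± 227 CPM (SD, n = 4) and run1 libraries 1038 ± 134 CPM (SD, n = 5), which is 0.18 on the log2 scale (SE 0.13, adjusted p = 0.29).

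Dppa2 and Dppa4 are neighbours on chromosome 16 (48303908 to 48319723 and 48283733 to 48294237), and their proteins act as a pair. Dppa2 was at 49.3 and 58.8 CPM in RGM knockout and 113, 146 and 75.1 CPM in V6.5 knockout libraries, against 47.2 and 43.4 CPM in RGM, 114 CPM in V6.5 and 151 CPM in Cas9-GFP wild-type libraries. Every RGM library lay below every run1 library. Dppa2 fell to a mean of 49.7 ± 6.56 CPM (SD, n = 4) in RGM, against 119.6 ± 30.6 CPM (SD, n = 5) in run1 libraries, 2.41-fold lower (log2 fold change -1.27, SE 0.20, 95% interval -1.69 to -0.85, adjusted p = 0.00017). A value as low or lower was found for 6.89% of all tested genes. By genotype the log2 fold change was -0.04 (SE 0.19, interval -0.45 to 0.36, adjusted p = 0.9998).

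Dppa4 did not pass the threshold between lines. It was at 133 and 163 CPM in RGM knockout and 155, 136 and 112 CPM in V6.5 knockout libraries, against 159.6 and 148 CPM in RGM, 111 CPM in V6.5 and 124 CPM in Cas9-GFP wild-type libraries. RGM and run1 libraries overlapped. RGM libraries averaged 151 ± 13.8 CPM (SD, n = 4) and run1 libraries 128 ± 18.2 CPM (SD, n = 5), a log2 fold change of 0.25 (SE 0.13, 95% interval -0.03 to 0.54, adjusted p = 0.14). This interval and that of Dppa2 do not overlap. By genotype Dppa4 had a log2 fold change of 0.08 (SE 0.13, interval -0.21 to 0.37, adjusted p = 0.9998). Its highest and lowest libraries differed 1.47-fold, the smallest span of the 10 members.

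Lin28a (chromosome 4, 134003330 to 134018841) encodes the RNA-binding protein that blocks let-7 maturation. It was at 265 and 289 CPM in RGM knockout and 69.4, 116 and 71.1 CPM in V6.5 knockout libraries, against 242 and 228 CPM in RGM, 74.9 CPM in V6.5 and 106 CPM in Cas9-GFP wild-type libraries. The 4 RGM libraries lay above all 5 run1 libraries, with the widest gap of the list. Lin28a averaged 256 ± 26.9 CPM (SD, n = 4) in RGM and 87.6 ± 22 CPM (SD, n = 5) in run1 libraries, 2.93-fold higher in RGM (log2 fold change 1.55, SE 0.17, 95% interval 1.19 to 1.91, adjusted p = 1.0e-05). A value as high or higher was found for 4.25% of all tested genes. By genotype the log2 fold change was 0.06 (SE 0.17, interval -0.30 to 0.42, adjusted p = 0.9998). Gm13061, an annotated transcript on the other strand, overlaps exons of Lin28a and has no row of its own.

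Trim71 (chromosome 9, 114507133 to 114564369) encodes an RNA-binding protein with a RING domain that silences messenger RNAs, and it is the classical let-7 target with several sites. It was at 17.3 and 12.6 CPM in RGM knockout and 40.9, 41.1 and 20.2 CPM in V6.5 knockout libraries, against 20.5 and 13.8 CPM in RGM, 38.1 CPM in V6.5 and 47.5 CPM in Cas9-GFP wild-type libraries. RGM libraries were the lower ones except that knockout replicate 5 of run1 lay just under wild-type replicate 1 of RGM. Trim71 fell to a mean of 16.1 ± 3.56 CPM (SD, n = 4) in RGM, against 37.6 ± 10.3 CPM (SD, n = 5) in run1 libraries, 2.35-fold lower (log2 fold change -1.23, SE 0.24, 95% interval -1.74 to -0.73, adjusted p = 0.00084). By genotype the log2 fold change was -0.28 (SE 0.23, interval -0.77 to 0.21, adjusted p = 0.9998), with the widest interval of the list. Lin28a and Trim71, the 2 members with more than 1 let-7 site, differed between lines in opposite directions. Any part of let-7 in these differences was not tested. C130032M10Rik, a gene on the other strand with no row of its own, overlaps exons of Trim71.

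L1td1 (chromosome 4, 98726734 to 98738480) encodes an RNA-binding protein descended from a LINE-1 element. It was at 209 and 255 CPM in RGM knockout and 366, 559 and 271 CPM in V6.5 knockout libraries, against 263 and 205 CPM in RGM, 381 CPM in V6.5 and 567 CPM in Cas9-GFP wild-type libraries. Every RGM library lay below every run1 library, though wild-type replicate 1 of RGM and knockout replicate 5 of run1 were close. L1td1 fell to a mean of 233 ± 30.3 CPM (SD, n = 4) in RGM, against 429 ± 129.6 CPM (SD, n = 5) in run1 libraries, 1.85-fold lower (log2 fold change -0.89, SE 0.20, 95% interval -1.32 to -0.45, adjusted p = 0.0030). By genotype the log2 fold change was -0.15 (SE 0.20, interval -0.57 to 0.28, adjusted p = 0.9998). A processed pseudogene, Gm48515, is 98.5% identical over 132 of the last 500 bases of the L1td1 transcript and has no row of its own, so the count of L1td1 is uncertain to that extent.

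Of the 4 members that passed, Lin28a, Dppa2 and L1td1 did not overlap between RGM and run1 libraries, 1 higher and 2 lower, where 19.4% of all genes were higher and 19.2% lower without overlap. Wild-type libraries alone gave the same 4 calls, with log2 fold changes of 1.38 for Lin28a (SE 0.26, adjusted p = 0.0035), -1.54 for Dppa2 (SE 0.29, adjusted p = 0.0032), -1.30 for Trim71 (SE 0.36, adjusted p = 0.021) and -1.01 for L1td1 (SE 0.31, adjusted p = 0.032). Those values are not independent of the fit to all libraries, which holds the same libraries. The difference of the knockout effect between RGM and run1 passed the threshold for 0 of 10 members, against a background of 0%, and 0 members and 1.44% of all genes had an unadjusted p under 0.05.

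**Figure D2:**
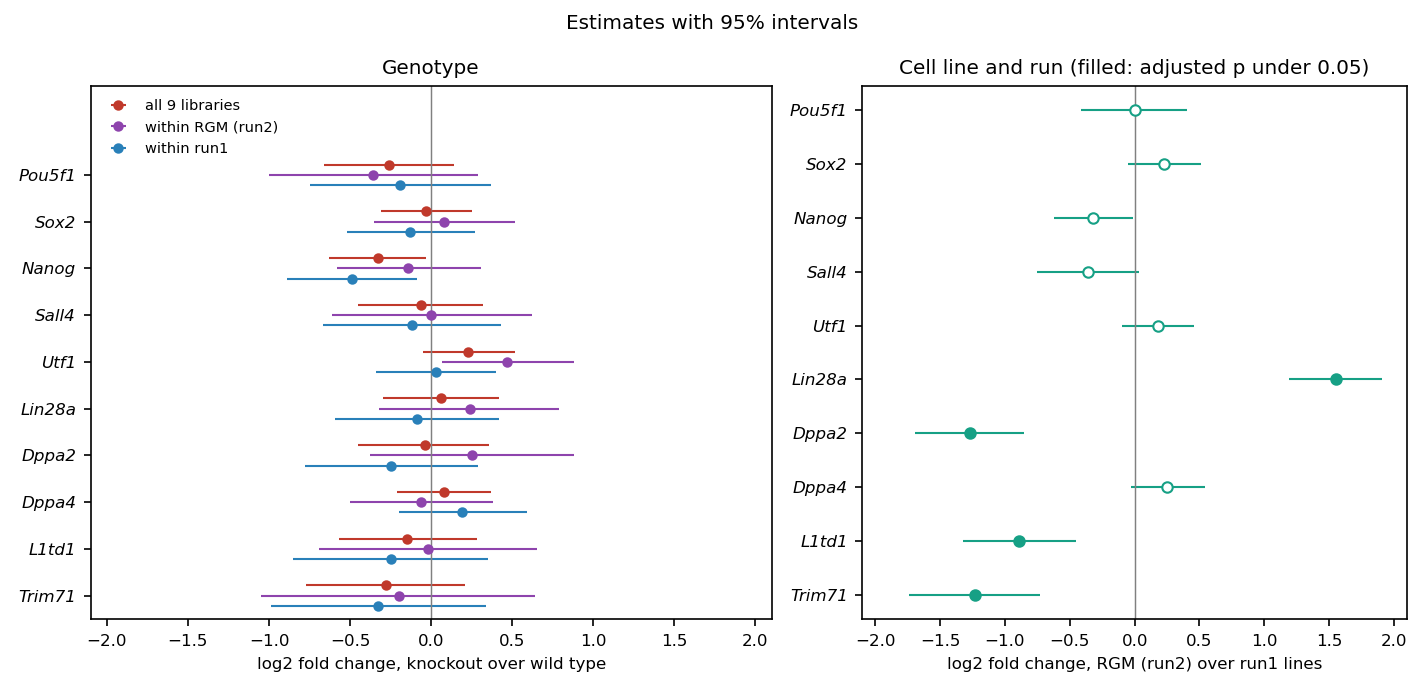
Log2 fold changes of the 10 members (points) with 95% intervals (lines). On the left, knockout over wild type in all libraries, within RGM and within run1, where no member passed the threshold; on the right, RGM over the run1 lines, where filled points (Lin28a, Dppa2, L1td1 and Trim71) passed it.

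Members also varied among the run1 libraries, in ways that crossed the genotypes. In run1 the highest and lowest libraries differed 2.36-fold for Trim71, 2.09-fold for L1td1, 2.01-fold for Dppa2, 1.96-fold for Nanog and 1.39-fold for Dppa4. Among the 4 RGM libraries the same spans were 1.62-fold for Trim71, 1.28-fold for L1td1, 1.35-fold for Dppa2 and 1.23-fold for both Nanog and Dppa4. Knockout replicate 5 was the lowest run1 library for 5 of 10 members and the highest for 0. Relative to the mean of the 5 run1 libraries on the log2 scale it was at -0.84 for Trim71, -0.63 for Dppa2, -0.61 for L1td1, -0.46 for Nanog and -0.45 for Sall4, and at 0.08 for Pou5f1, Sox2 and Utf1. Knockout replicate 4 and wild-type replicate 4 stood together at the high end for several members. For L1td1 they were at 0.44 and 0.46, for Lin28a at 0.44 and 0.32, for Sall4 at 0.37 and 0.34 and for Dppa2 at 0.33 and 0.37. These 2 libraries, V6.5 knockout and Cas9-GFP wild type, differ in genotype and cell line and share the run and the replicate number 4. Whether that number marks a shared step of preparation is not stated. Pou5f1 was set apart by knockout replicate 3, at -0.61.

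**Figure D3:**
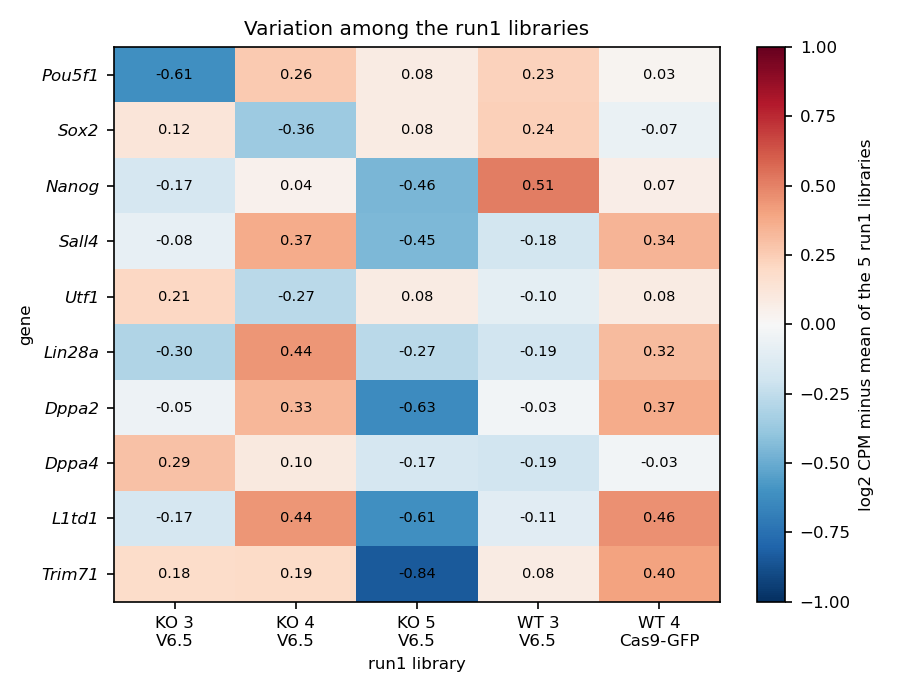
Level of each member (rows) in the 5 run1 libraries (columns, knockout on the left), as log2 CPM minus the mean of these libraries. Knockout replicate 5 is lowest for Nanog, Sall4, Dppa2, L1td1 and Trim71, and knockout replicate 4 and wild-type replicate 4 are the 2 highest for Sall4, Lin28a, Dppa2, L1td1 and Trim71.

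With 1 library a line, V6.5 and Cas9-GFP wild-type cells could only be set side by side. Exact Poisson intervals, which cover counting error only since counts may not be independent molecules, did not overlap for L1td1, at 567 CPM (95% interval 546 to 587) in Cas9-GFP and 381 CPM (367 to 396) in V6.5 cells. The same held for Nanog, at 798 CPM (774 to 822) in Cas9-GFP and 1083 CPM (1060 to 1110) in V6.5 cells. It also held for Sox2, lower in Cas9-GFP, and for Sall4, Utf1, Lin28a and Dppa2, higher there. For Pou5f1 the intervals overlapped, at 39.6 CPM (34.4 to 45.3) in Cas9-GFP and 45.5 CPM (40.7 to 50.6) in V6.5 cells. Those of Dppa4 and Trim71 overlapped too. The share of all genes without such overlap was not counted, so L1td1 and Nanog are not set apart by it. No difference between these lines was tested.

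Genes with the level pattern most like that of the central trio were looked up over the 9 libraries, among 5753 well-expressed genes. Likeness was the root mean square difference of the mean-centred log2 levels, for which the median gene was at 0.366 to 0.409. A gene with no variation at all would be at 0.278 for Pou5f1, 0.207 for Sox2 and 0.282 for Nanog. Nearest to Pou5f1 were Rps16 (0.161), the merged row of Mir3082 and Stub1 (0.162) and Ftl1 (0.170). Nearest to Sox2 were Klf10 (0.0806), Fkbp3 (0.0828) and Rpap1 (0.0918), and nearest to Nanog were M6pr (0.123), Ilk (0.131) and Lrrfip2 (0.134). None of the 9 is on the lists described here.

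Other genes of the network were described from 9 lists, in which 0 tested genes passed the threshold by genotype in edgeR and 0 in DESeq2. At an unadjusted p under 0.05 in edgeR there were 2.32% of all tested genes. The lists of POU and SOX relatives, of differentiation markers, of TRIM71 targets and of genes dependent on DPPA2 and DPPA4 had 1 gene each, and the other lists 0. For the POU and SOX list and the differentiation list it is the same gene, Pou3f1, which is on both. Of 22 other pluripotency factors 10 passed between lines, 2 higher and 8 lower in RGM. That count is close to the 45.3% of all tested genes that passed, so it says nothing particular of the list. The median log2 fold change was -0.41 beside -0.02 for all tested genes. Zfp42, which encodes the stem cell zinc finger protein REX1, averaged 348 ± 33.9 CPM (SD, n = 4) in RGM and 35.5 ± 2.89 CPM (SD, n = 5) in run1 libraries, 9.85-fold higher in RGM (adjusted p = 9.6e-10). The opposite direction was seen for Klf4, a reprogramming factor, 2.35-fold lower in RGM (189 ± 14.7 CPM in RGM against 449 ± 90.7 CPM in run1, adjusted p = 2.8e-05), and for its relative Klf5, 1.97-fold lower (113 ± 15.0 CPM in RGM against 226 ± 40.7 CPM in run1, adjusted p = 0.00011). Rest, a repressor of neuronal genes, was 4.32-fold lower (15.1 ± 4.97 CPM in RGM against 68.6 ± 17.7 CPM in run1, adjusted p = 6.0e-06). By genotype the same list had a median of 0.01, equal to that of all genes. Here and for the lists that follow, means are given ± SD over 4 RGM and 5 run1 libraries. All list counts between lines are to be read beside 22.2% of all tested genes higher and 23.1% lower in RGM.

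Of 12 textbook targets of OCT4, SOX2 and NANOG 6 passed between lines, 1 higher and 5 lower in RGM, with a median of -0.26. Tdgf1, which encodes the Nodal co-receptor CRIPTO, was 2.70-fold lower in RGM (559 ± 38.5 CPM in RGM against 1535 ± 402 CPM in run1, adjusted p = 1.1e-05). Fgf4, the growth factor whose enhancer binds OCT4 and SOX2 together, was 2.42-fold lower (107 ± 3.17 CPM in RGM against 260.2 ± 52.8 CPM in run1, adjusted p = 2.2e-05), and Spp1, a secreted glycoprotein gene, was 1.5-fold lower (adjusted p = 0.0014). Fbxo15, an F-box gene with a joint OCT4 and SOX2 element, was 1.94-fold higher (323 ± 25.2 CPM in RGM against 164 ± 52.0 CPM in run1, adjusted p = 0.0031). That share is close to the 45.3% of all tested genes, so the count says nothing particular of the targets. By genotype the median of this list was -0.07, and Fgf4 had a log2 fold change of 0.00 (SE 0.15).

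Among POU and SOX relatives 13 of 16 were tested, and 1 was higher and 3 were lower in RGM. Pou3f1, which encodes OCT6 of primed cells and neural progenitors, was 2.41-fold lower (14.0 ± 2.75 CPM in RGM against 34.9 ± 7.02 CPM in run1, adjusted p = 5.6e-05), and Sox11 was 1.86-fold higher (adjusted p = 0.019). The other 2 lower genes, Sox1 (0.671 CPM in RGM and 4.46 CPM in run1) and Pou4f2 (1.35 CPM in RGM and 9.53 CPM in run1), were under the level of the low-count filter (2.05 CPM) in RGM. They entered the test only through run1, where they are high, so their calls were largely fixed by the filter and carry no weight. By genotype this list had a median of 0.33 beside 0.01 for all genes, with Pou3f1 at 0.48 (SE 0.17, unadjusted p = 0.011, adjusted p = 0.9998). Of 17 SALL relatives and NuRD subunits 2 were higher and 7 lower in RGM. They included Sall1 (2.21-fold lower, adjusted p = 0.00012), the deacetylases Hdac2 (1.72-fold lower, adjusted p = 0.00038) and Hdac1 (1.81-fold lower, adjusted p = 0.00084), and the row that holds Mbd2 with AK035891 (1.67-fold higher, adjusted p = 0.00051).

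Around LIN28 and let-7, 17 rows were tested and 11 passed between lines, 2 higher and 9 lower in RGM, with a median of -0.45. Mycn, which encodes a MYC family factor, was 2.65-fold higher (296 ± 26.7 CPM in RGM against 111 ± 25.4 CPM in run1, adjusted p = 1.2e-05), and Igf2bp2, which encodes an RNA-binding protein and is a known let-7 target, was 2.35-fold higher (274 ± 15.1 CPM in RGM against 118 ± 38.0 CPM in run1, adjusted p = 0.00029). Hmga1, a chromatin gene, was 2.74-fold lower (7.44 ± 0.523 CPM in RGM against 20.5 ± 2.90 CPM in run1, adjusted p = 9.0e-05), and Dicer1, which makes mature microRNAs, was 2.09-fold lower (61.6 ± 8.48 CPM in RGM against 129 ± 23.5 CPM in run1, adjusted p = 0.00014). Of 7 reported targets of TRIM71 1 was higher, Egr1 (1.83-fold, adjusted p = 0.0027), and 2 were lower, Inhbb (5.29-fold, adjusted p = 0.0024) and Mbnl1 (1.80-fold, adjusted p = 0.040). By genotype Egr1, an immediate early transcription factor gene, had a log2 fold change of 0.55 (SE 0.20, unadjusted p = 0.015, adjusted p = 0.9998).

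Genes that depend on DPPA2 and DPPA4 were mostly too low to be tested. Of 15 listed genes 14 had a row and 2 were tested, and both were lower in RGM, as were 23.1% of all tested genes. Dppa2 was lower too, whereas Dppa4 had a log2 fold change of 0.25 (interval -0.03 to 0.54) and did not pass. Any part of Dppa2 in the level of these 2 tested genes was not tested. Syce1, of the synaptonemal complex, was 9.95-fold lower (6.74 ± 1.22 CPM in RGM against 66.1 ± 23.3 CPM in run1, adjusted p = 2.4e-07), and Mael, a germline gene of the piRNA pathway, was 5.81-fold lower (2.78 ± 1.92 CPM in RGM against 16 ± 8.13 CPM in run1, adjusted p = 0.0023). By genotype Syce1 had a log2 fold change of -0.63 (SE 0.20, unadjusted p = 0.0068, adjusted p = 0.9998). The listed Zscan4 genes are near-identical copies whose reads may be split, and no row of theirs held more than 21 counts over the 9 libraries together.

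Of 27 differentiation markers 16 were tested, 7 higher and 5 lower in RGM. Of these, 3 higher genes were under 2.05 CPM in run1 and 2 lower genes under it in RGM, so that they entered the test only through the line where they are high and the count supports no direction. Dab2, of primitive endoderm, was 9.08-fold higher (28.2 ± 4.71 CPM in RGM against 3.23 ± 1.31 CPM in run1, adjusted p = 8.1e-07). T, the mesoderm factor Brachyury, was 1 of these 3, with 5.38 ± 0.505 CPM in RGM and 0.204 ± 0.156 CPM in run1 libraries, where it was also under the floor of 3 counts. The row that holds Pax6, of neural and eye progenitors, with AK047243 and AK080416 was another, with 6.44 ± 1.26 CPM in RGM and 1.04 ± 0.539 CPM in run1. The summed level of the list was 360.4 to 461 CPM in RGM knockout and 328 to 376 CPM in RGM wild-type libraries, and 244 to 317 CPM in run1 knockout and 246 to 250.3 CPM in run1 wild-type libraries. Dnmt3b (3691 counts over the 9 libraries), Col4a1 (2084), Otx2 (1321) and Pou3f1 (1229) had the most counts of the list. The sum rests largely on them and says little of the other markers. Pou3f1 is on this list too. Among the feeder markers with the smallest p were Lox, 5.10-fold higher in RGM (348 ± 105 CPM in RGM against 69.1 ± 11.3 CPM in run1, adjusted p = 7.6e-07), Fn1, 2.08-fold higher (adjusted p = 1.5e-05), Col6a1, 2.75-fold higher (adjusted p = 1.7e-05), and Col3a1, 3.96-fold higher (adjusted p = 1.8e-05). By genotype the differentiation list had a median of 0.01 and the feeder list one of 0.16.

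**Figure D4:**
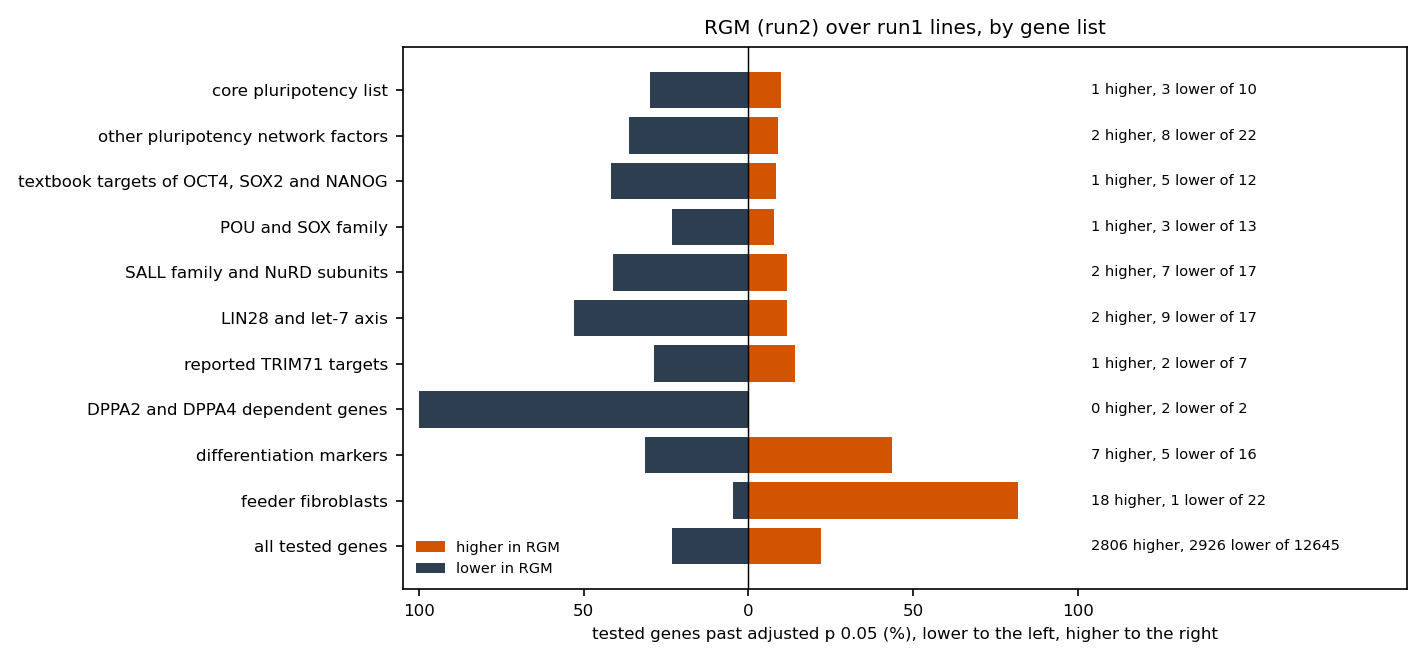
Share of the tested genes of each list (horizontal axis, percent) that passed an adjusted p of 0.05 between RGM and the run1 lines, higher to the right and lower to the left, with the counts printed beside each bar. The core pluripotency list has 1 of 10 higher and 3 of 10 lower, beside 22.2% and 23.1% of all tested genes; the list of genes dependent on DPPA2 and DPPA4 rests on 2 tested genes, and the bars of the POU and SOX, differentiation and feeder lists include genes that entered the test only through the line where they are high.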

How the data were processed

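Bulk RNA of 5 Gzf1-knockout and 4 wild-type libraries had been sequenced by MARS-seq2.0, per the labels' protocols, and the authors deposited 1 table of raw counts per gene. Per the submitters' processing notes, STAR, DESeq2 and the mm10 build were used (no version or role stated). The sources used here do not state how molecular identifiers and strand entered the counts. No normalization had been applied to the deposited counts. All value columns were mapped to samples by their names. The 92 spike-in rows (1 with a count) were left out.

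Genes were kept with filterByExpr (minimum count 10) and tested with the robust quasi-likelihood test of edgeR 4.0.16 in R 4.3.3, after TMM scaling, with Benjamini-Hochberg adjustment at 0.05. Genotype and line came from 1 fit with run as a term, and effects within a run and their difference from a fit with 4 groups of genotype and run. The SE is the log2 fold change over the square root of F, and intervals are 95%. CPM are given without a pseudocount. Exact Poisson intervals and the floor of 3 counts cover counting error only. DESeq2 1.42.0, other scaling, no filter, each library left out and a replicate block were tried as alternatives. The procedure was also run on simulated data, whose true changes were larger than any genotype estimate of the members. That run does not speak to changes as small as those estimates.

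The members and all lists were chosen with earlier results of these data known. The genes named from each list are those past the threshold by genotype and up to 4 past it between lines with the smallest adjusted p; beside them, those with an unadjusted p under 0.05 by genotype are given for that value. Genes of like pattern are the 3 non-members with the smallest root mean square difference among those with a mean log2 CPM over 5. Motifs and let-7 letters were matched exactly.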

Additional observations from a re-analysis of the deposited data

How the results depend on the processing

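Under every alternative run, 0 of 10 members passed the threshold by genotype, in all libraries, within RGM and within run1, and for the difference between runs. Between lines 4 members passed, and 6 without the low-count filter or without knockout replicate 5, where Nanog (-0.36, adjusted p = 0.022, and -0.40, adjusted p = 0.017) and Sall4 (-0.40, adjusted p = 0.022, and -0.46, adjusted p = 0.03) joined them. The cause was not tested. Lin28a (1.38 to 1.68), Dppa2 (-1.54 to -1.15), L1td1 (-1.01 to -0.74) and Trim71 (-1.38 to -1.13) passed in all 14 alternatives, with adjusted p (edgeR, or DESeq2 for its own test) up to 0.0035, 0.0032, 0.032 and 0.021. Of 650 values of single members under alternatives 646 stayed on their side of the threshold with no reversal of a called value, and 52 uncalled values changed sign, none larger than 0.29. Over all genes, the count by genotype was 4, and 35 with no filter on low counts, 7 with the DESeq2 Wald test and 2 to 4 when a library was left out (2 in each of the fits that omitted knockout libraries 1, 2 or wild-type libraries 1, 3, 4). Within RGM it was 0, and 7 with no filter, 2 with DESeq2, 9 with RGM libraries alone and 0 to 1 when a library was left out (1 without knockout replicate 4). Within run1 it was 2, and 46 with no filter, 4 with DESeq2, 1 with run1 libraries alone and 0 to 8 when a library was left out (8 without knockout replicate 4). For the difference between runs it was 0, and 1 with no filter. Between lines it was 5732, and 3081 with wild-type libraries alone. Replicate numbers recur in both genotypes, but the sources used here do not state that they mark pairs, so they were not taken as such. With the mean of each genotype and run removed, same-numbered libraries had correlations of -0.08, -0.08, 0.30 and 0.35 for numbers 1 to 4. In a group of 2 libraries such deviations are mirror images. The values for numbers 1 and 2 are therefore the same value, whose sign alone made knockout replicates 1 and 2 match the other number. Knockout replicates 3 and 4 each matched best the wild-type library of their own number. Each chose only between a pattern and its reverse. The correlations are thus not separate observations and cannot decide whether the replicate number marks pairs. With the number as a replicate block 0 members passed by genotype, as did 6 of all genes, and Nanog had a log2 fold change of -0.25 (unadjusted p = 0.059, edgeR). That fit left out knockout replicate 5, whose number has no wild-type library. The SE was then 0.12 for L1td1, 0.12 for Sall4 and 0.13 for Dppa2, against 0.20, 0.18 and 0.19 in the main fit. With knockout replicate 5 left out and no block it was 0.16, 0.16 and 0.15, so the block accounts for only part of the fall. Depth limits Trim71 and Pou5f1 most, with counts down to 32 and 92.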
